A study of Homo sapiens with 15 samples.

Results

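The comparison described here set H1975-OR cells treated with osimertinib (Samples 4a, 4b, and 4c) against parental H1975 cells treated with vehicle (Samples 1a, 1b, and 1c), that is, the resistant line while the drug was present against the line it came from. These 6 samples of the 15 in the series were taken by their labelled cell line and treatment, with no use of measured values. H1975 is a lung adenocarcinoma cell line whose EGFR carries T790M and L858R, and H1975-OR is the osimertinib-resistant line grown out of it under chronic osimertinib and kept in 500 nM osimertinib. Both lines therefore share the 2 EGFR mutations. Cells received vehicle or 500 nM osimertinib for 96 h, with doses at 0, 48, and 92 h, and RNA came from 3 separate passages per condition. H1975-OR cells given vehicle for the same time (Samples 2a, 2b, and 2c) were used for comparison, in which the resistant line had been without its drug for 96 h. Parental H1975 cells treated with osimertinib were not analysed here, so the effects of line and drug within the difference between Samples 4 and Samples 1 cannot be told apart from these 6 samples alone. H1975-OR is a single resistant line, and the 3 libraries of a group are passages of it.

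EGFR is a receptor tyrosine kinase that passes growth signals from ligands such as amphiregulin and epiregulin to the MAPK and AKT cascades, and osimertinib is an irreversible inhibitor built to act on mutant EGFR, including the form with the T790M change that blocks earlier inhibitors. Cells that grow in spite of such inhibitors may carry a new receptor mutation, signal through another receptor, or have left the epithelial state in an epithelial-to-mesenchymal transition (EMT). In EMT, transcription factors of the SNAI, ZEB, and TWIST families act on genes for cell junctions such as E-cadherin, while cytoskeletal and matrix genes of mesenchymal cells are used more.

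The authors sequenced ribosomal RNA-depleted, stranded total RNA, and the deposited values are estimated counts per gene. The counts of the 6 libraries summed to between 4741807 and 5447793. Values are given below as CPM, that is, rounded counts scaled to a common library size after TMM normalization, and always in the order of replicates a, b, and c. Values of different genes are not set against each other, since CPM does not account for gene length. Fold changes are log2 values of H1975-OR with osimertinib minus H1975 with vehicle, with the standard error after the ± sign, and adjusted p-values (Benjamini-Hochberg, over all tested genes) are from the quasi-likelihood test of edgeR. A gene is said to have risen or fallen where its adjusted p was under 0.05. Some genes that most cells use were close to 0 in every library of this table, such as B2M of the MHC class I complex, with 5.59, 3.12, and 3.87 CPM in H1975 and 9.7, 4.4, and 2.7 CPM in H1975-OR with osimertinib. A low value in this table is therefore not evidence that a gene was silent.

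Library 4a stood apart from 4b and 4c. On the log2(CPM + 2) scale its correlation across genes was 0.938 with both, against 0.960 between 4b and 4c, and it correlated with the H1975 libraries at 0.889 to 0.922, against 0.861 to 0.887 for 4b and 4c. Mitochondrially encoded genes held 1.04% of counts in 4a and 1.05% in 1a, against 0.671% to 0.701% in the other 4 libraries. Counts that rest on 4a are given with and without it. The part of passage or RNA quality in this was not tested.

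Of 12281 genes tested, 2798 (22.8%) differed between H1975-OR with osimertinib and H1975 with vehicle, 1391 higher (11.3%) and 1407 lower (11.5%). These percentages are the background for each gene list below. The change was over 2-fold for 652 of the higher and 761 of the lower genes, and over 8-fold for 136 and 144. The median log2 fold change over all tested genes was 0.01. Groups that did not overlap were common. In 2512 genes (20.5%) every osimertinib library lay above every H1975 library, and in 2576 (21%) below. Without 4a, 3004 genes passed the test, 1459 higher and 1545 lower, and 2404 of these were among the 2798. In these bulk libraries, fewer cells of a type and less RNA per cell cannot be told apart.

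Many epithelial junction genes were lower in H1975-OR with osimertinib. Of 41 genes for epithelial adhesion and polarity, 38 were tested, 19 fell, none rose, and the median log2 fold change was -1.52, against 0.01 over all genes. The 3 members not tested (DSG2, PRSS8, and CEACAM6) did not exceed 2.14 CPM in any of the 9 libraries. Without 4a, 17 fell and the median was -1.79, and leaving out any 1 of the other 5 libraries gave 13 to 21 falls. The list was also lower in H1975-OR with vehicle against H1975, where 16 fell, 1 rose, and the median was -1.40. Over all genes in that comparison 8.83% were higher and 9.05% lower.

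CDH1 (chromosome 16, 68737292 to 68835537 in GRCh38, GENCODE 44) encodes E-cadherin, the adhesion molecule of adherens junctions. Its level was 109, 240.3, and 384 CPM in the H1975 libraries and 6.79, 5.03, and 2.49 CPM in H1975-OR with osimertinib. All 3 osimertinib libraries lay far below all 3 H1975 libraries, and H1975 replicate a was the lowest of its group (log2 fold change -5.66 ± 0.53, edgeR adjusted p = 0.000326). EPCAM, an epithelial adhesion molecule used as a carcinoma marker, measured 75.7, 174, and 208 CPM in H1975 and 7.96, 4.61, and 8.1 CPM in H1975-OR with osimertinib (-4.46 ± 0.40, edgeR adjusted p = 0.000296). The tight junction claudins fell with them. CLDN7 went from 8.39, 33.4, and 57.9 CPM to 0.776, 1.68, and 1.25 CPM (-4.73 ± 0.79, edgeR adjusted p = 0.0035), and CLDN4 from 166, 362, and 524 CPM to 47.7, 62.6, and 46.1 CPM (-2.75 ± 0.38, edgeR adjusted p = 0.00147). For each of these 4 genes replicate a was the lowest H1975 library, yet the groups did not overlap.

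Other falls in the list covered proteases and their inhibitors, integrins, and basement membrane genes. ITGB6, the beta chain of an epithelial integrin that activates latent TGF-beta, had 12.8, 50.1, and 65.8 CPM in H1975 and no count in any library of H1975-OR with osimertinib, at least 70.2-fold lower by a floor of 3 counts per library. RAB25, an epithelial vesicle-trafficking GTPase, was also without a count there, at least 6.77-fold lower than its 1.92, 4.59, and 5.91 CPM in H1975. ST14, the membrane protease matriptase, fell by 5.53 on the log2 scale, from 36.7, 84.6, and 106 CPM to 2.14, 1.47, and 1.25 CPM (edgeR adjusted p = 0.000286), and its inhibitor SPINT1 from 10.5, 49.5, and 73.2 CPM to 0.97, 1.26, and 0.415 CPM (-5.61 ± 0.76, edgeR adjusted p = 0.00138). None of these 4 genes exceeded 2.14 CPM in the resistant line under the drug. Of the laminin chains of epithelial basement membranes, LAMB3 (-3.29 ± 0.36) fell, while LAMA3 had a log2 fold change of -1.38 with an edgeR adjusted p of 0.316. The plakophilin PKP3 (-1.80 ± 0.20) and plakoglobin, JUP (-0.94 ± 0.27), fell less steeply, and desmoplakin, DSP, at -0.57 did not pass the test (edgeR adjusted p = 0.172). Of the 19 members tested and not called, 14 had a negative fold change.

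**Figure D1:**
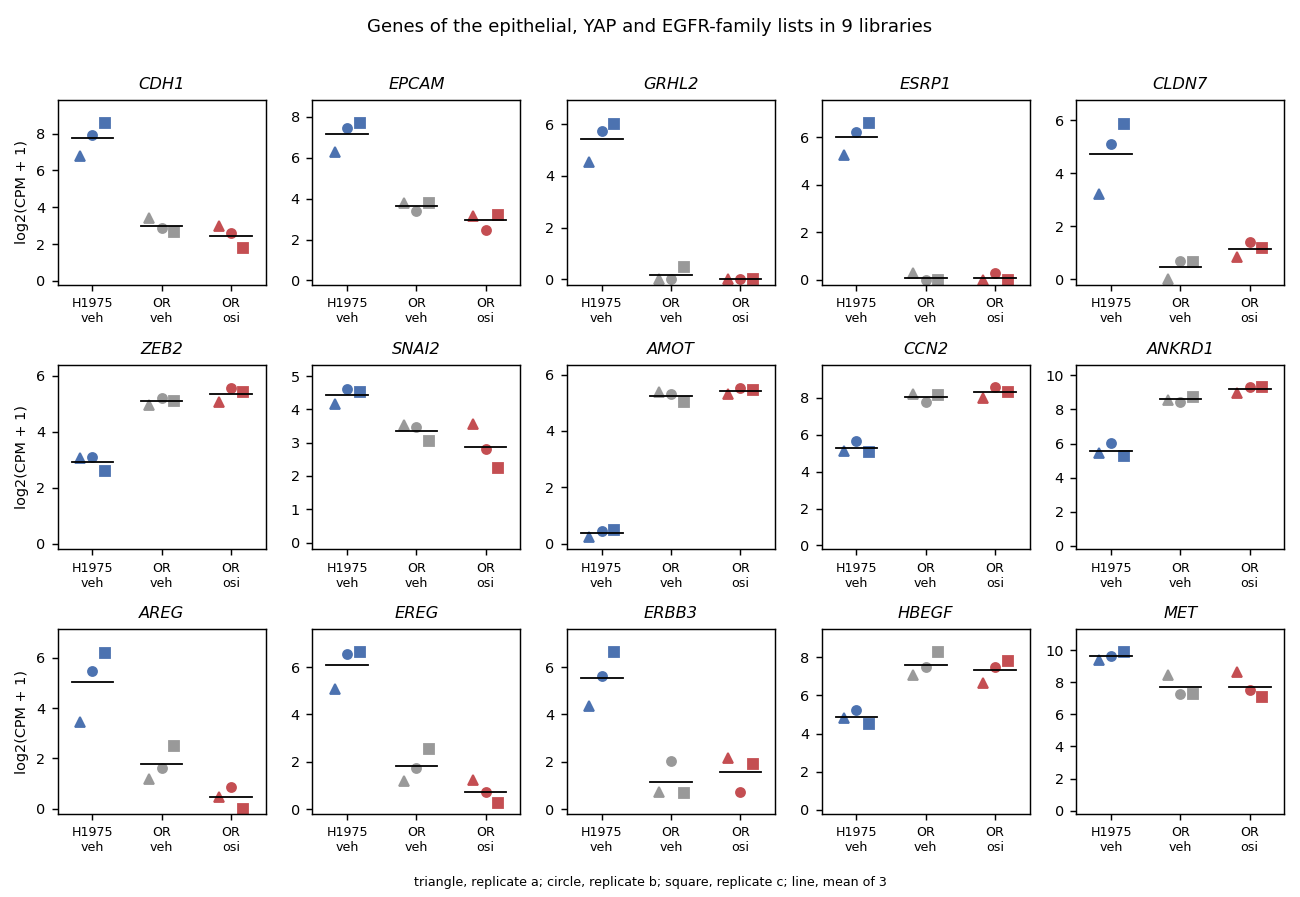
Levels of 15 genes as log2(CPM + 1) in each of 9 libraries, in 3 groups of 3 (vertical axis, log2 scale; veh, vehicle; osi, osimertinib; triangle, circle, and square, replicates a, b, and c; line, mean). CDH1, EPCAM, GRHL2, ESRP1, and CLDN7 lie far lower in both H1975-OR groups than in H1975, AMOT, CCN2, ANKRD1, and ZEB2 lie higher, and H1975 replicate a is the lowest H1975 library for CDH1, EPCAM, and ERBB3.

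Regulators of the epithelial state fell too. Of 17 transcription factors and splicing factors of epithelia, 11 were tested, 6 fell, 1 rose, and the median log2 fold change was -1.78. Without 4a, 7 fell, 1 rose, and the median was -3.05, while 10 fell without 1a and 4 without 1b or 4b. GRHL2, a grainyhead factor that keeps epithelial genes active, had 22, 51.7, and 64 CPM in H1975 and no count in the 3 libraries of H1975-OR with osimertinib, at least 75.1-fold lower (edgeR adjusted p = 0.000757). ESRP1, which directs epithelial splicing, had 37.2, 73.2, and 95.6 CPM against 0, 0.21, and 0 CPM, a total of 1081 counts against 1, or 991-fold (95% counting interval 178 to 39189). Both genes had at most 1 count in any library of the resistant line with the drug. FOXA2, an endodermal factor, went from 3.15, 6.79, and 9.17 CPM to no count, at least 10.4-fold lower, and OVOL1, a repressor of EMT factors, from 5.42, 18.2, and 17.7 CPM to 1.36, 0.838, and 0 CPM (-4.17 ± 0.95, edgeR adjusted p = 0.0137). KLF5 (-1.37 ± 0.33), a factor of epithelial growth, was lower but still present. TFAP2A, an AP-2 factor, was the member that rose (1.26 ± 0.31, edgeR adjusted p = 0.0185), and this call was lost without any of 1a, 1b, 4b, or 4c (edgeR adjusted p up to 0.0714).

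The SNAI and ZEB factors, which repress epithelial genes during EMT, bind the E-box letters CAGGTG, which read CACCTG on the other strand. Windows of 250 bases before the gene start, the first listed for each gene by RefSeq on GRCh38.p14, were found for 24 of the 41 adhesion and polarity genes, not including CDH1 and EPCAM. The letters CAGGTG or CACCTG stood in 12 of these 24 windows (50.0%), against 1578 of the 10010 windows of tested genes (15.8%) and 17.5% of all 27303 windows. Of the 19 members that fell, 11 had a window and 6 of these held the letters. Over all tested genes that fell, 180 of 1105 windows held them (16.3%), close to the share of all tested genes. For the regulators, 3 of 10 windows held them, and the 1 regulator that fell and had a window did not. A match in these letters is a description of the sequence and not a bound site. The windows of 3 members are shown as examples that both fell and held these letters, with the E-box letters in capitals and each sequence read 5′ to 3′ along the gene. For ITGB6 only the 209 bases outside annotated exons are given. They lie at chr1:156060910-156061159 (plus strand) for RAB25, chr4:84582877-84583126 (plus strand) for CDS1, and chr2:160200314-160200522 (minus strand) for ITGB6.
RAB25: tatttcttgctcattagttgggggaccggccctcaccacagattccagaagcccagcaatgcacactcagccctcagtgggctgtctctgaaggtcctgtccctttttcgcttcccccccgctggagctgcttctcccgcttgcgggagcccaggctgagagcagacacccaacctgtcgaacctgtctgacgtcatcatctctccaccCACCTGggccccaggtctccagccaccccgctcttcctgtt
CDS1: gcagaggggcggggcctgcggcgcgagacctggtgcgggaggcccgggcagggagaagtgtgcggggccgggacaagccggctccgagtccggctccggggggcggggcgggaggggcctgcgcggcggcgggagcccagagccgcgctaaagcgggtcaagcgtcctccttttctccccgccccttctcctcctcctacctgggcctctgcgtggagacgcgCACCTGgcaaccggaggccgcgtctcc
ITGB6: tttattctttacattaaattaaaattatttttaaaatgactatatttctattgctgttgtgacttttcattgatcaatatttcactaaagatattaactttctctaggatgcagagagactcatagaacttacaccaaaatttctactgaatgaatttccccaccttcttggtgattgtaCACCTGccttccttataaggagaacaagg
CDS1, an enzyme of phosphatidylinositol synthesis used as an epithelial marker, fell from 16.1, 27.7, and 40.0 CPM to 5.05, 1.68, and 2.28 CPM (-3.20 ± 0.52, edgeR adjusted p = 0.00305).

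The list of keratins of simple epithelia, which also held the hair keratin KRT81, did not move as a group. Of 6 genes tested, 3 fell and 1 rose. KRT19 had 1044, 1238, and 1169.5 CPM in H1975 and 168, 129, and 119 CPM in H1975-OR with osimertinib (-3.05 ± 0.26, edgeR adjusted p = 0.000235). KRT7 (-1.14 ± 0.24) and the hair keratin KRT81 (-3.38 ± 0.67) also fell. KRT18 rose by 0.49 on the log2 scale, from 1889.6, 2059, and 1781 CPM to 2217, 2839, and 2965 CPM (edgeR adjusted p = 0.0282), a call lost in 6 of 14 alternatives. Its partner KRT8 had 478, 510.4, and 414 CPM and 319, 475, and 577 CPM, with overlapping groups (-0.03 ± 0.30, edgeR adjusted p = 0.949). KRT8 and KRT18 form the keratin pair of simple epithelia, and neither was called lower.

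On the mesenchymal side the list of cytoskeletal and adhesion genes split. Of 20 genes, 15 were tested, 4 rose, 3 fell, and the median log2 fold change was 0.06. VIM, the intermediate filament protein vimentin, had 3059.6, 2624, and 2205 CPM in H1975 and 2974, 3421, and 3973 CPM in H1975-OR with osimertinib. These ranges overlapped and the difference did not pass the test (0.39 ± 0.18, edgeR adjusted p = 0.15). CDH2, which encodes N-cadherin, did not exceed 3 counts in any of these 6 libraries. The 4 that rose were the tropomyosin TPM1 (1.70 ± 0.29), the myosin light chain MYL9 (1.01 ± 0.19), the calcium-binding protein S100A4 (0.86 ± 0.22), and calponin, CNN1 (5.60 ± 1.35). CNN1, at 0.35, 0.55, and 0.815 CPM in H1975, measured 66.4, 11.3, and 7.68 CPM with osimertinib, highest in 4a. Among those that fell, NT5E, the ectonucleotidase CD73, went from 154, 163, and 183 CPM to 18.8, 6.7, and 8.1 CPM (-3.88 ± 0.44, edgeR adjusted p = 0.000645) and the fibronectin receptor chain ITGA5 from 327, 222, and 261 CPM to 104, 54.7, and 52.1 CPM (-1.94 ± 0.30, edgeR adjusted p = 0.00244). The third was the focal adhesion protein ZYX (-0.65 ± 0.21), whose call was lost in 7 of 14 alternatives.

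The EMT-inducing factors also went in both directions. Of 13 genes, 7 were tested, 2 rose, and 2 fell (1 and 1 without 4a, 1 and 0 without 1b, 1c, or 4b). ZEB2, a zinc-finger repressor of CDH1, rose from 7.34, 7.52, and 5.1 CPM to 32.4, 45.7, and 42.1 CPM (2.58 ± 0.23, edgeR adjusted p = 0.000286). ZEB1 measured 8.22, 1.83, and 1.22 CPM and 8.54, 5.24, and 27.6 CPM, with overlapping groups (1.85 ± 0.88, edgeR adjusted p = 0.161). SNAI2 fell from 16.8, 23.5, and 21.8 CPM to 10.9, 6.08, and 3.74 CPM (-1.58 ± 0.38, edgeR adjusted p = 0.0177), and SNAI1 from 16.3, 23.7, and 21.6 CPM to 9.9, 13.4, and 10.8 CPM (-0.85 ± 0.24, edgeR adjusted p = 0.0328). The call for SNAI1 was lost in 9 of 14 alternatives and that for SNAI2 in 3. TWIST1 had no count in these libraries. PRRX2, a homeobox factor, rose from 4 counts in all to 40, 10.9-fold (95% counting interval 3.94 to 42) (edgeR adjusted p = 0.0488). Its call was lost in 8 of 11 alternatives.

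Matrix genes changed in both directions. Of 41 genes, 28 were tested, 13 rose, 7 fell, and the median log2 fold change was 0.56. Without 4a, 12 rose and 6 fell, and without 1b 8 rose and 4 fell. Fibronectin, FN1, fell from 514, 673, and 959.5 CPM to 88.5, 89.7, and 60.6 CPM (-3.17 ± 0.25, edgeR adjusted p = 0.000218). TGFBI, a matrix protein first found as a target of TGF-beta, fell from 1685, 1284, and 1270.2 CPM to 417, 519, and 562 CPM (-1.50 ± 0.16, edgeR adjusted p = 0.000494). The type I collagen chain COL1A2 (-4.14 ± 1.00), the urokinase gene PLAU (-1.47 ± 0.28), and its receptor PLAUR (-1.40 ± 0.41) fell too. Against these, SPARC, a collagen-binding glycoprotein, rose from 173, 134, and 89.1 CPM to 526, 1179.8, and 1123 CPM (2.84 ± 0.37, edgeR adjusted p = 0.0012). The collagen gene COL12A1 went from 241, 180.3, and 233 CPM to 853, 1186, and 731 CPM (2.08 ± 0.36, edgeR adjusted p = 0.00438), and tenascin C, TNC, from 522, 402, and 531 CPM to 883, 2838, and 1699 CPM (1.90 ± 0.36, edgeR adjusted p = 0.006). COL3A1, a fibrillar collagen, had 3 counts in the H1975 libraries together and 705 in H1975-OR with osimertinib, 256-fold (95% counting interval 87.3 to 1246), at 12.8, 79, and 54.4 CPM. Its level in 4a was the lowest of the 3. COL1A1 (-0.36 ± 0.41) and the gelatinase MMP2 (2.57 ± 1.02) did not pass the test.

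**Figure D2:**
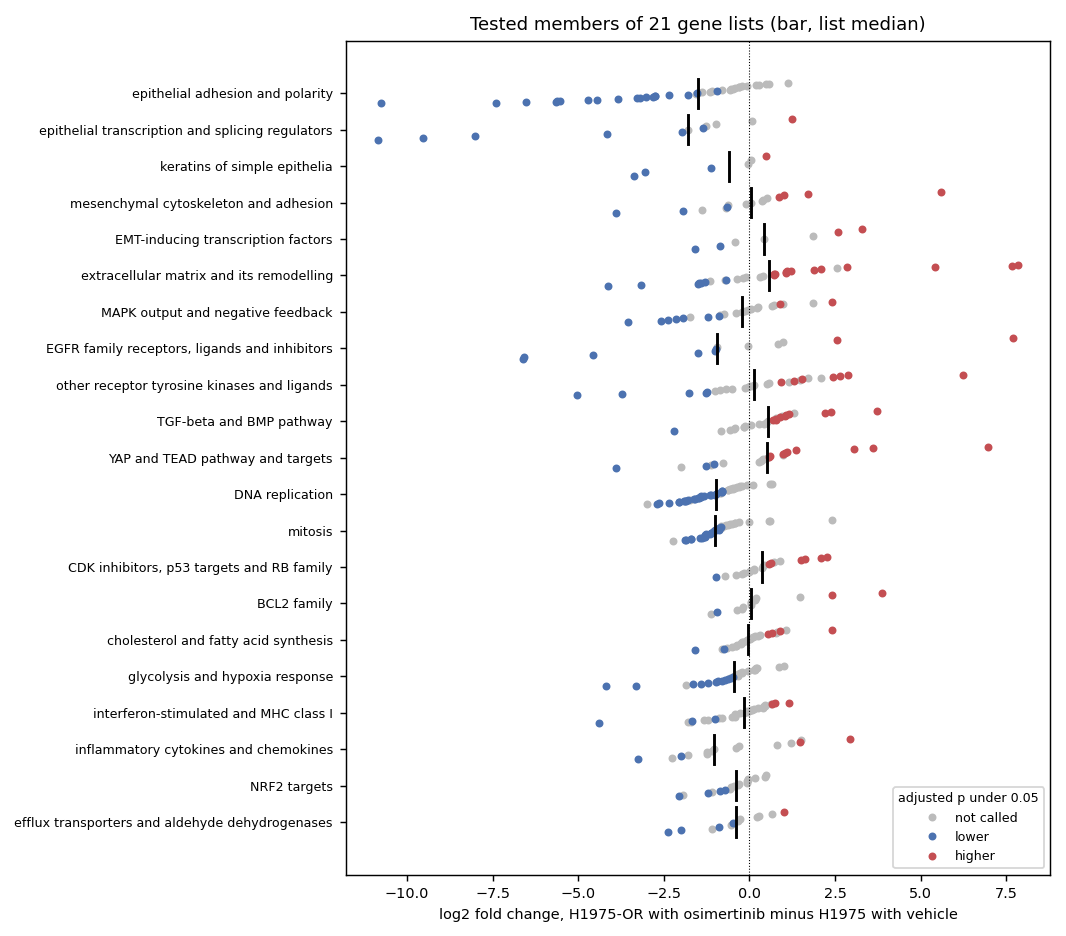
Log2 fold changes of H1975-OR with osimertinib against H1975 with vehicle (horizontal axis) for the tested members of 21 gene lists, 1 point per gene (red, higher; blue, lower; grey, not called at an adjusted p of 0.05; black bar, list median). The epithelial lists reach furthest to the left with medians of -1.52 and -1.78, the replication and mitosis lists have medians of -0.98 and -1.02 with no gene called higher, and the matrix list has calls on both sides.

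Members of the EGFR family moved in both directions, with more falls than rises. Of 16 receptors, ligands, and inhibitors of the EGFR family, 12 were tested, 6 fell, 2 rose, and the median log2 fold change was -0.96. The falls were 4 without 1b, 1c, or 4b, and 3 without 4c. EGFR had 217, 204, and 312 CPM in H1975 and 109, 150.2, and 113 CPM in H1975-OR with osimertinib, lower in all 3 libraries (-0.98 ± 0.24, edgeR adjusted p = 0.0196). The call was lost without 1c or 4c. ERBB3, a partner receptor with little kinase activity that couples to PI3K, fell from 19.2, 47.7, and 97.2 CPM to 3.49, 0.629, and 2.7 CPM (-4.56 ± 0.79, edgeR adjusted p = 0.00428). ERBB2 measured 86.7, 118, and 129 CPM and 102, 291, and 268 CPM, with 4a inside the H1975 range and 4b and 4c above it (0.99 ± 0.35, edgeR adjusted p = 0.0733). Without 4a its fold change was 1.32 and passed the test (edgeR adjusted p = 0.00429). ERBB4, a neuregulin receptor, had no count in H1975 and 1.16, 7.12, and 7.06 CPM with osimertinib, at least 9.1-fold higher.

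Among the ligands, amphiregulin, AREG, went from 9.97, 43.3, and 72.6 CPM to 0.388, 0.838, and 0 CPM (-6.60 ± 0.99, edgeR adjusted p = 0.00225), and epiregulin, EREG, from 33, 91.5, and 97.2 CPM to 1.36, 0.629, and 0.208 CPM (-6.59 ± 0.70, edgeR adjusted p = 0.000494). Neither exceeded 1.36 CPM in the presence of osimertinib. The neuregulin gene NRG1 fell as well (-1.50 ± 0.35, edgeR adjusted p = 0.0154). HBEGF, a ligand of EGFR and ERBB4, rose from 27.6, 36.3, and 21.6 CPM to 100.3, 180.4, and 221 CPM (2.55 ± 0.38, edgeR adjusted p = 0.00226), so the ligands did not move together. ERRFI1 (MIG6), a feedback inhibitor of EGFR that EGFR signaling induces, fell from 181, 272, and 276 CPM to 126, 109, and 126 CPM (-1.01 ± 0.26, edgeR adjusted p = 0.0235).

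Genes that report MAPK output were lower in part. Of 24, 23 were tested, 7 fell, 2 rose, and the median log2 fold change was -0.23. The 7 included the MAPK phosphatases DUSP4, at 41.6, 54.1, and 43.4 CPM in H1975 and 11.8, 9.01, and 10.4 CPM with osimertinib (-2.15 ± 0.20, edgeR adjusted p = 0.000325), and DUSP5, at 31.1, 50.6, and 57.3 CPM and 10.7, 6.08, and 6.23 CPM (-2.59 ± 0.31, edgeR adjusted p = 0.000757). PHLDA1 (-2.37 ± 0.25), the AP-1 subunit FOSL1 (-1.95 ± 0.24), and the immediate early factor EGR1 (-3.55 ± 0.82) fell too. DUSP6, the phosphatase most used as an ERK readout, measured 16.8, 21.3, and 22.8 CPM and 4.66, 4.19, and 9.34 CPM. Its groups did not overlap, but it did not pass the test (-1.74 ± 0.60, edgeR adjusted p = 0.0648). SPRY4, ETV4, and ETV5 had overlapping groups, while the ERK feedback inhibitor SPRY2 rose (0.88 ± 0.21, edgeR adjusted p = 0.0171), as did the ephrin receptor EPHA4 (2.40 ± 0.31, edgeR adjusted p = 0.00107). Without 4a, 6 members fell and 5 rose, and without 4b 4 fell and 1 rose.

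Of 37 other receptor tyrosine kinases and ligands, 27 were tested, 7 rose, 5 fell, and the median was 0.13 (0.38 without 4a). MET, the hepatocyte growth factor receptor, fell from 672, 803, and 967 CPM to 397, 182, and 133 CPM (-1.78 ± 0.44, edgeR adjusted p = 0.019), and the loss was greater without 4a (-2.38, edgeR adjusted p = 0.00403). The call for MET was lost in 4 of 14 alternatives, those without 1b, 1c, 4b, or 4c (edgeR adjusted p up to 0.0742). AXL, a receptor of GAS6, measured 158, 99.8, and 84.6 CPM and 158, 159.6, and 169 CPM. The osimertinib libraries lay just above the highest H1975 library and the gene did not pass the test (0.51 ± 0.21, edgeR adjusted p = 0.109). PDGFRB rose from 5.42, 2.02, and 2.65 CPM to 21.4, 31.4, and 22.6 CPM (2.88 ± 0.41, edgeR adjusted p = 0.00182), and the fibroblast growth factor FGF1 from 0.35, 3.67, and 3.67 CPM to 14.6, 15.7, and 11.2 CPM (2.43 ± 0.62, edgeR adjusted p = 0.021). FGFR2 (2.64 ± 0.76), FGFR3 (1.29 ± 0.34), the insulin receptor INSR (0.92 ± 0.17), GAS6 (1.54 ± 0.49), and IGF2 rose as well, IGF2 from no count to 0.582, 2.72, and 2.28 CPM. FGFR1 at 0.56 ± 0.20 did not pass the test (edgeR adjusted p = 0.069). Without 4a, 4 members of this list rose and 3 fell, without 4b 2 and 1, and without 1c 4 and 1.

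**Figure D3:**
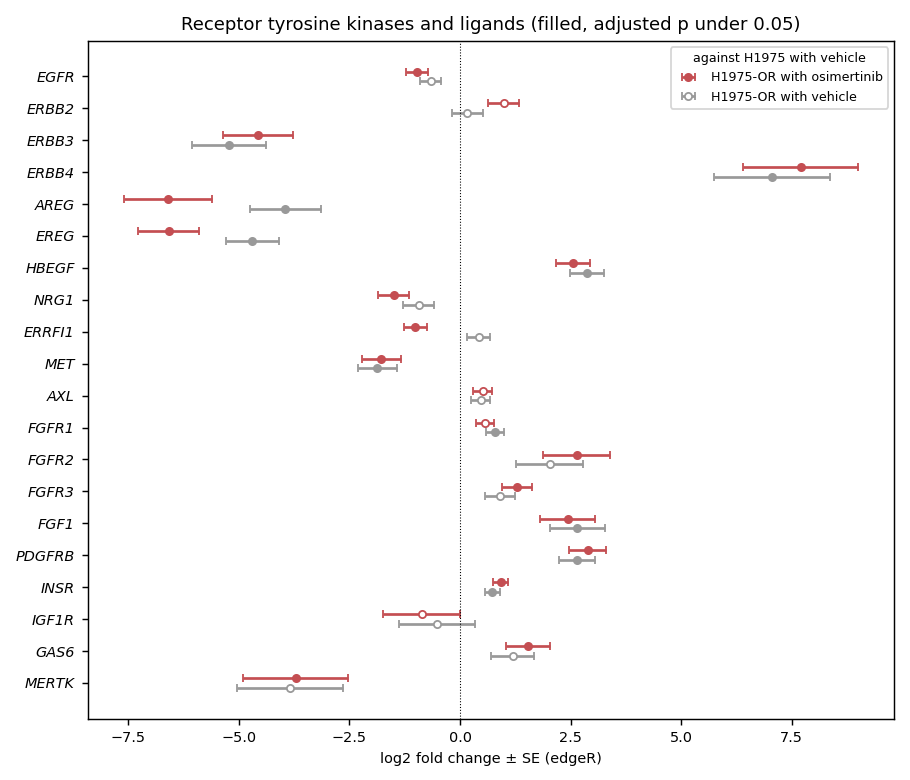
Log2 fold changes (± SE) against H1975 with vehicle for 20 receptor tyrosine kinases and ligands, in H1975-OR with osimertinib (red) and H1975-OR with vehicle (grey), which share the H1975 libraries as controls (filled, adjusted p under 0.05). AREG, EREG, and ERBB3 lie at -6.60, -6.59, and -4.56 with osimertinib, HBEGF and PDGFRB at 2.55 and 2.88.

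Genes of TGF-beta and BMP signaling rose more often than they fell. Of 29, 27 were tested, 10 rose, 1 fell, and the median log2 fold change was 0.54. Without 4a, 11 rose, but 5 to 7 did without any 1 of the other 5 libraries. The ligand gene INHBA, for the activin A subunit, rose from 7.87, 1.1, and 1.02 CPM to 48.1, 50.3, and 38.2 CPM (3.74 ± 0.60, edgeR adjusted p = 0.00301). FSTL1, a follistatin-like secreted protein, rose from 293, 250.2, and 196 CPM to 1356, 1161, and 916 CPM (2.21 ± 0.39, edgeR adjusted p = 0.00442). The inhibitory SMAD6 (2.39 ± 0.34), the BMP antagonist NOG (1.17 ± 0.36), the receptor BMPR1A (1.06 ± 0.15), SMAD2 (0.70 ± 0.14), SMAD4 (0.77 ± 0.19), and the BMP targets ID2 (1.04 ± 0.27) and ID3 (0.91 ± 0.28) were also higher. TGFB2, at 0.78 ± 0.25, stood at the threshold (edgeR adjusted p = 0.0497) and lost its call in 8 of 14 alternatives. TGFB1 (-0.45 ± 0.46) and the receptor TGFBR2 (-0.58 ± 0.19, edgeR adjusted p = 0.0565) did not pass the test. The member that fell, LTBP1, binds latent TGF-beta in the matrix (-2.21 ± 0.55).

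The YAP and TEAD list held the gene with the smallest p of the whole comparison. YAP and its partner TAZ are coactivators that TEAD factors bring to DNA when the Hippo kinases are inactive. Of 22 genes, 21 were tested, 9 rose, 3 fell, and the median was 0.51. AMOT (chromosome X, 112774503 to 112840831) encodes angiomotin, which binds YAP at tight junctions. It had 0.175, 0.367, and 0.408 CPM in H1975, 5 counts in all, and 38.4, 44.6, and 42.4 CPM in H1975-OR with osimertinib, 134-fold (95% counting interval 57.2 to 415) (6.96 ± 0.30, edgeR adjusted p = 1.04e-05). The targets ANKRD1 and CCN2 (listed as CTGF) followed. ANKRD1 went from 42.7, 63.8, and 38.1 CPM to 506, 633, and 629 CPM (3.61 ± 0.21, edgeR adjusted p = 7.22e-05), and CCN2 from 33.2, 49.5, and 32.6 CPM to 251, 379, and 323 CPM (3.05 ± 0.23, edgeR adjusted p = 0.000145). The groups did not overlap for these 3 genes. CCN1 (listed as CYR61, 1.35 ± 0.27), CRIM1 (1.08 ± 0.18), AJUBA (1.04 ± 0.13), TEAD4 (0.99 ± 0.25), LATS2 (0.61 ± 0.14), and AMOTL2 (0.56 ± 0.11) rose by less. TAZ, encoded by WWTR1, fell (-1.02 ± 0.24, edgeR adjusted p = 0.0149), as did IGFBP3 and NT5E. Without 4a, 11 rose and 4 fell.

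The TEAD factors recognise the letters GGAATG, which read CATTCC on the other strand. Of 17 members with a window of 250 bases before the start, 5 held these letters (29.4%), against 951 of 10010 tested genes (9.5%), and this motif was searched after the values were seen. Over all tested genes that rose, 114 of 1136 windows held them (10.0%). The windows of CCN2, at chr6:131951373-131951622 (minus strand), and ANKRD1, at chr10:90921088-90921337 (minus strand), are shown as those of the 2 targets with the greatest rises, with the TEAD letters in capitals, 3 matches in CCN2 and 2 in ANKRD1.
CCN2: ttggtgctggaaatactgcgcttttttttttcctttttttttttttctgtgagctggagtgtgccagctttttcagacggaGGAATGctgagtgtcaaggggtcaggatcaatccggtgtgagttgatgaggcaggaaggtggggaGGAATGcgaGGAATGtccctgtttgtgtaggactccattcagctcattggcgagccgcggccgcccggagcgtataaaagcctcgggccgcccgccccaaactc
ANKRD1: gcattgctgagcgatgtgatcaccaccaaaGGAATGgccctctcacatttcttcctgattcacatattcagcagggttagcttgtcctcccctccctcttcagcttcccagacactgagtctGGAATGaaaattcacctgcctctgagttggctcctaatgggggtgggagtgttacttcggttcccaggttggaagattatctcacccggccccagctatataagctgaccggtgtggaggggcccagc

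Genes of DNA replication and of mitosis fell, and none rose. Of 45 DNA replication genes, all tested, 25 fell and none rose, with a median of -0.98. Of 42 mitosis genes, all tested, 24 fell and none rose, with a median of -1.02. Without 4a, 25 and 23 fell, and without any 1 of the other 5 libraries 20 to 24 replication genes and 12 to 17 mitosis genes did. RRM2, the regulated subunit of ribonucleotide reductase, had 272, 280.3, and 311 CPM in H1975 and 63.7, 42.3, and 27 CPM with osimertinib (-2.70 ± 0.34, edgeR adjusted p = 0.00107). The helicase loader CDC6 went from 125, 114, and 116 CPM to 60.4, 35.2, and 37.2 CPM (-1.42 ± 0.28, edgeR adjusted p = 0.00739), and the sliding clamp PCNA from 397, 382, and 357 CPM to 199, 157, and 149.7 CPM (-1.17 ± 0.16, edgeR adjusted p = 0.00138). E2F1 (-1.87 ± 0.35), a driver of the list, fell with them. The groups did not overlap for any of these genes, and 4a was the highest osimertinib library for each.

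Among mitotic genes, the kinase PLK1 fell from 69.6, 75.4, and 69.7 CPM to 23.7, 17.6, and 17.9 CPM (-1.86 ± 0.27, edgeR adjusted p = 0.0021), CDK1 from 179.6, 181, and 169.6 CPM to 87.5, 67, and 62.1 CPM (-1.29 ± 0.27, edgeR adjusted p = 0.00896), and cyclin B1, CCNB1, from 391, 373, and 317 CPM to 194, 169, and 159 CPM (-1.05 ± 0.17, edgeR adjusted p = 0.00289). These falls were by about 2-fold to 4-fold and every osimertinib library lay below every H1975 library. MKI67, the proliferation marker Ki-67, measured 338, 202, and 445 CPM and 120.1, 201, and 87.4 CPM, which barely separated (-1.27 ± 0.38, edgeR adjusted p = 0.0402), and its call was lost in 6 of 14 alternatives, that without 4a included (0.0870). Replication-dependent histone genes stood among the smallest p of the comparison. HIST2H2AA3 went from 631, 741, and 726 CPM to 182, 185, and 167 CPM (-1.97 ± 0.12, edgeR adjusted p = 7.22e-05), with HIST2H2BF (-1.94 ± 0.12) and HIST2H3D (-2.36 ± 0.15) beside it. These genes have near-identical copies between which reads can be split, so the values of single copies are uncertain.

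The cell cycle lists were lower in H1975-OR with vehicle as well. In H1975-OR with vehicle against H1975, 33 replication genes and 34 mitosis genes fell, with medians of -1.17 and -1.49, where 8.83% of all genes were higher and 9.05% lower. In H1975-OR with osimertinib against H1975-OR with vehicle, the medians were 0.24 and 0.57, and no gene of either list passed the test. MKI67 had a log2 fold change of 1.10 (edgeR adjusted p = 0.477), PLK1 of 0.68 (0.577), and CDK1 of 0.70 (0.534) in this direct comparison. The 3 comparisons share samples.

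**Figure D4:**
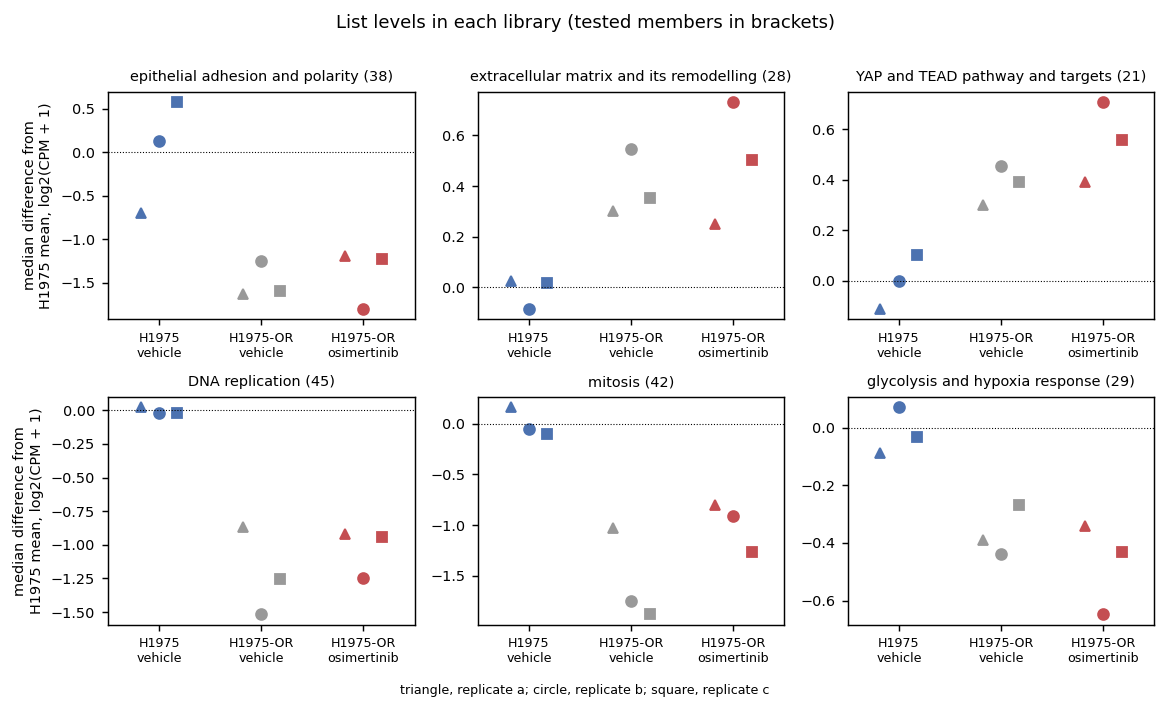
Median over the tested members of 6 gene lists of the difference from the H1975 mean, in log2(CPM + 1), for each of 9 libraries (vertical axis; triangle, circle, and square, replicates a, b, and c). The mitosis list lies between -0.80 and -1.26 in the osimertinib libraries and between -1.02 and -1.88 in the H1975-OR vehicle libraries, and the epithelial list separates H1975 replicate a, at -0.70, from replicates b and c, at 0.13 and 0.58.

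Inhibitors of the cell cycle rose in part. Of 20 genes in a list of CDK inhibitors, p53 targets, and the RB family, all tested, 6 rose, 1 fell, and the median was 0.38. Without 4a the counts were 6 and 1 and the median was 0.07. CDKN1C, which encodes p57, rose from 6.47, 4.59, and 5.5 CPM to 15.3, 28.3, and 36.1 CPM (2.26 ± 0.43, edgeR adjusted p = 0.00609), and the INK4 inhibitor CDKN2C from 38.8, 31.9, and 20.2 CPM to 55.9, 117, and 107 CPM (1.62 ± 0.31, edgeR adjusted p = 0.00604). CDKN1C was also high in H1975-OR with vehicle, at 27.6, 61.8, and 73.4 CPM (osimertinib against vehicle -1.03 ± 0.39, edgeR adjusted p = 0.526). CDKN1B, encoding p27, rose less (0.58 ± 0.14, edgeR adjusted p = 0.0153), and its call was lost in 3 of 14 alternatives. CDKN1A, encoding p21, measured 31.6, 74.3, and 72.2 CPM and 54.2, 80.0, and 61 CPM with overlapping groups (0.13 ± 0.31, edgeR adjusted p = 0.788), while ZMAT3, an RNA-binding protein, rose (1.50 ± 0.28). RB1 did not differ beyond its spread (0.02 ± 0.29), and its relative RBL1 fell (-0.97 ± 0.13).

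Of the BCL2 family, 13 of 16 genes were tested, 2 rose, and 1 fell. BMF, a BH3-only protein that promotes cell death, rose from 6.29, 2.38, and 5.71 CPM to 31.4, 116, and 65.6 CPM (3.88 ± 0.53, edgeR adjusted p = 0.00148), and the anti-apoptotic BCL2 from 8.39, 3.12, and 4.08 CPM to 25, 30.8, and 27.6 CPM (2.41 ± 0.40, edgeR adjusted p = 0.00329). PMAIP1, encoding NOXA, fell (-0.94 ± 0.18, edgeR adjusted p = 0.00604). These counts were close to the shares over all genes, 11.3% higher and 11.5% lower, and the list median was 0.05. The 2 rises were 1 gene on the pro-apoptotic and 1 on the anti-apoptotic side. BCL2L11, which encodes BIM, a mediator of death after EGFR inhibition, had 11.5, 16.9, and 27.7 CPM and 12, 21.8, and 13.9 CPM (-0.23 ± 0.39, edgeR adjusted p = 0.707), and MCL1 (0.05 ± 0.11) and BCL2L1 (0.05 ± 0.18) overlapped as well.

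Part of the glycolytic and hypoxia-response genes fell. Of 30, 29 were tested, 12 fell, none rose, and the median was -0.47. Without 4a, 13 fell, and without 1b or 4b 6 did. Carbonic anhydrase CA12 showed the deepest fall of the list, from 72.7, 48.6, and 56.9 CPM to 4.66, 3.77, and 1.25 CPM (-4.19 ± 0.39, edgeR adjusted p = 0.000326). Hexokinase HK2 went from 65.6, 90.1, and 136 CPM to 41.7, 46.7, and 36.3 CPM (-1.22 ± 0.25, edgeR adjusted p = 0.00796). Most of the glycolytic enzymes that fell did so by about 2-fold or less, as with LDHA (-0.49 ± 0.12), PKM (-0.72 ± 0.20), PGK1 (-0.54 ± 0.13), and PFKP (-0.92 ± 0.12). SLC2A1, the glucose transporter GLUT1, did not pass the test (-0.47 ± 0.37).

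Other metabolic lists were examined as well. Of 28 tested genes of cholesterol and fatty acid synthesis, 4 rose and 2 fell, near the shares over all genes, 11.3% higher and 11.5% lower. SC5D, a late step of cholesterol synthesis, went from 37.4, 57.4, and 43.6 CPM to 179, 263, and 301 CPM (2.42 ± 0.22, edgeR adjusted p = 0.000298). The elongase ELOVL6 went from 122, 117, and 127 CPM to 47.6, 34.6, and 39.4 CPM (-1.59 ± 0.14, edgeR adjusted p = 0.000296). Of 18 tested NRF2 targets, 4 fell, among them HMOX1 (-2.06 ± 0.47), SRXN1 (-0.87 ± 0.13), and GCLM (-0.71 ± 0.17), and none rose. Efflux pumps and aldehyde dehydrogenases, often listed with drug tolerance, gave 4 falls and 1 rise among 12 tested. The transporter ABCG2 fell from 72.7, 46.2, and 32 CPM to 11.5, 8.59, and 8.72 CPM (-2.39 ± 0.31, edgeR adjusted p = 0.00109), ALDH1A3 fell (-2.01 ± 0.28), and ABCB1 had no count in these 6 libraries.

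Of 33 interferon-stimulated and MHC class I genes, all tested, 3 rose and 3 fell, near the shares over all genes, 11.3% higher and 11.5% lower. Without 4a, 3 rose and 6 fell. IFITM1, a membrane protein that restricts viruses, fell from 65.7, 58.5, and 54.8 CPM to 5.24, 2.51, and 0.623 CPM (-4.39 ± 0.60, edgeR adjusted p = 0.00138), and IFIT2 rose from 40.2, 46.4, and 50.4 CPM to 102, 93.4, and 109 CPM (1.15 ± 0.13, edgeR adjusted p = 0.000587). Among 15 tested cytokines and chemokines of 30, IL11 fell (-3.25 ± 0.63, edgeR adjusted p = 0.00666), TNFAIP3 fell (-1.99 ± 0.58), and IL32 (2.94 ± 0.73) and CCL2 (1.46 ± 0.43) rose. The 2 rises and 2 falls among these cytokines and chemokines were near the shares over all genes too. Without 4a neither of the rises was called. IL6 (-1.09 ± 0.55) and CXCL8 (-1.80 ± 0.83) did not pass the test.

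Markers of other cell types and lineages were checked in the same libraries. The lung factor NKX2-1 measured 32.9, 44, and 58.3 CPM in H1975 and 33.8, 97.4, and 100.5 CPM with osimertinib (0.78 ± 0.43, edgeR adjusted p = 0.225). Library 4a lay inside the H1975 range for NKX2-1, and without it the gene was called higher (1.13, edgeR adjusted p = 0.0411). NAPSA and SFTPB did not exceed 2.27 CPM in either group. The neuroendocrine factor INSM1 had no count. Of 2 tested squamous and 3 tested neuroendocrine markers none was called, nor of 4 endothelial markers, of which 2 were called higher without 4a. Of 10 fibroblast markers 4 were tested and 3 rose, PDGFRB, COL3A1, and LUM, the last from no count to 9.51, 3.14, and 2.28 CPM. The summed fibroblast markers were 6.97 to 13.8 CPM in H1975 and 51.4 to 118 CPM in H1975-OR with osimertinib, while DCN, a defining fibroblast marker, did not exceed 1.05 CPM. In H1975-OR with vehicle the same sum was 59.4 to 121 CPM. Blood and immune markers summed to 35.5 to 49.2 CPM and 13.8 to 27.8 CPM, of which CD68 made up most, and PTPRC did not exceed 0.970 CPM.

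Beyond the lists, the genes with the largest rises were led by genes almost without reads in H1975. KCNT2, a sodium-activated potassium channel, had no count in H1975 and 20.8, 24.3, and 30.3 CPM with osimertinib, at least 44.7-fold higher (edgeR adjusted p = 0.000329). MYOCD, encoding myocardin, a coactivator of smooth and heart muscle genes, had 1 count in H1975 and 782 with osimertinib, 853-fold (95% counting interval 153 to 33726), at 11.3, 76.3, and 74.7 CPM. IGFBP5, a binding protein of insulin-like growth factors, rose from 4.2, 1.28, and 2.24 CPM to 77.1, 524, and 318 CPM (6.87 ± 0.74, edgeR adjusted p = 0.000511). For both MYOCD and IGFBP5 the level in 4a was far below that in 4b and 4c. RARB, the retinoic acid receptor beta, rose from 0.699, 0.55, and 0.408 CPM to 23.7, 78.6, and 74.5 CPM (6.66 ± 0.63, edgeR adjusted p = 0.000328), and the chaperone CRYAB from 1.05, 1.28, and 0.408 CPM to 79, 39.8, and 23 CPM (5.64 ± 0.82, edgeR adjusted p = 0.00193). The placental alkaline phosphatases ALPP (6.02 ± 0.45) and ALPPL2 (5.14 ± 0.73) are near-identical paralogs between which reads can be split, so their separate values are uncertain. CCDC85A (6.29 ± 0.71), TMPRSS3 (5.76 ± 0.66), SDK1 (5.08 ± 0.54), and PARD3B (5.06 ± 0.53) also belonged to the 15 largest rises. KRT17, at 2.62, 0.183, and 0 CPM in H1975, was among them through 4a, where it stood at 87.5 CPM against 3.35 and 2.91 CPM in 4b and 4c, and without 4a its log2 fold change was 1.67 with an edgeR adjusted p of 0.331.

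The largest falls also included genes that were near 0 in the resistant line. TM4SF18, a tetraspanin-like membrane protein, went from 36.9, 50.1, and 47.1 CPM to 0, 0.419, and 1.45 CPM (-6.13 ± 0.65, edgeR adjusted p = 0.000494). SERPINB5, encoding maspin, had 442 counts in H1975 and 3 with osimertinib, 135-fold (95% counting interval 45.9 to 658), and TMEM30B 521 and 3, 159-fold (95% counting interval 54.2 to 775). Maspin is a serpin of epithelia, and TMEM30B belongs to lipid flippases. LAD1, a basement membrane protein, fell from 39.3, 75, and 98.7 CPM to 1.36, 0, and 0.83 CPM (-6.53 ± 0.70), MACC1, a regulator of MET, from 12.4, 58.7, and 109 CPM to 1.55, 0.838, and 0.208 CPM (-6.05 ± 0.90), and the DNA sensor AIM2 from 20.1, 30.8, and 39.5 CPM to 0.582, 0, and 0.415 CPM (87.5-fold (95% counting interval 37.2 to 271)). TCN1, a vitamin B12 binder, reached no count from 13.3, 25.5, and 33.8 CPM, at least 39.6-fold lower, and PKIB, a protein kinase A inhibitor, fell by 6.07 on the log2 scale. MAL2, a membrane trafficking protein of the adhesion and polarity list, fell from 71, 217, and 329.8 CPM to 5.43, 1.05, and 0 CPM (-6.52 ± 1.05, edgeR adjusted p = 0.00301).

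Genes with the smallest p outside these sets are given next, and picking by p by itself favours large changes with little spread. SDC2, a heparan sulfate proteoglycan, rose from 16.1, 10.1, and 7.54 CPM to 188, 173, and 166 CPM (3.96 ± 0.27, edgeR adjusted p = 9.38e-05), and NPR3, the clearance receptor of natriuretic peptides, from 26.6, 27.9, and 24.3 CPM to 432, 621, and 523 CPM (4.32 ± 0.27, edgeR adjusted p = 8.61e-05). FADS3, of the fatty acid desaturase family, rose from 40.9, 38.2, and 24.9 CPM to 217, 196, and 218 CPM (2.60 ± 0.18, edgeR adjusted p = 9.38e-05), and SYNC, encoding the intermediate filament protein syncoilin, from 5.07, 4.4, and 4.48 CPM to 33.4, 35.2, and 34.5 CPM (2.88 ± 0.21, edgeR adjusted p = 0.000121). For these genes 4a lay close to 4b and 4c.

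Which part of the difference was tied to the presence of osimertinib was asked by setting Samples 4a to 4c against H1975-OR with vehicle. This comparison shares the osimertinib libraries with the one above. Only 6 of 12281 genes (0.0489%) passed the test, 5 higher (0.0407%) and 1 lower (0.00814%), while 969 had an unadjusted p under 0.05 and DESeq2 called 129. Replicate letters deviated together between these 2 groups (correlations of 0.315, 0.123, and 0.202), and with a replicate block 2 genes passed, whereas a block fitted in the 2 groups alone left 0, with 1363 at an unadjusted p under 0.05. H1975-OR with vehicle against H1975, which shares the H1975 libraries, gave 2196 genes (17.9%), 1085 higher (8.83%) and 1111 lower (9.05%).

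The 6 genes differed between the resistant line with and without its drug. SLC44A2, a choline transporter, measured 135, 112, and 120.1 CPM in H1975, 166, 143, and 126 CPM in H1975-OR with vehicle, and 631, 939, and 947 CPM in H1975-OR with osimertinib (osimertinib against vehicle 2.53 ± 0.19, edgeR adjusted p = 0.00153). GPNMB, a glycoprotein of lysosomes and melanosomes, measured 93.5, 81.6, and 90.9, 73.6, 80.8, and 58, and 285, 429, and 340.5 CPM in the same order of groups (2.31 ± 0.18, edgeR adjusted p = 0.00153). For both genes the H1975 and H1975-OR vehicle groups were close and the osimertinib libraries lay above all others. ARRDC3, an arrestin-domain protein that regulates receptor trafficking, had 167, 181, and 164, 229.6, 169, and 179, and 479.6, 661, and 665 CPM (1.65 ± 0.17, edgeR adjusted p = 0.00706). XPO1, the nuclear export receptor, had 391, 395, and 406, 290.3, 277, and 272, and 522, 533, and 595 CPM (0.98 ± 0.10, edgeR adjusted p = 0.00706), and ZNF185, an actin-binding LIM protein, 33.7, 40.4, and 39.8, 17.9, 9, and 9.57, and 73.8, 48.2, and 73.3 CPM (2.42 ± 0.29, edgeR adjusted p = 0.0266). XPO1 and ZNF185 were below H1975 in H1975-OR with vehicle (log2 fold changes of -0.51 and -1.64, edgeR adjusted p = 0.00766 and 0.00505) and above all H1975 libraries with osimertinib. MGP, the matrix Gla protein, was the gene that fell, with 59.8, 61.8, and 61.4, 77.3, 70.6, and 63.3, and 30.9, 36, and 35.9 CPM (-1.04 ± 0.13, edgeR adjusted p = 0.0393).

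**Figure D5:**
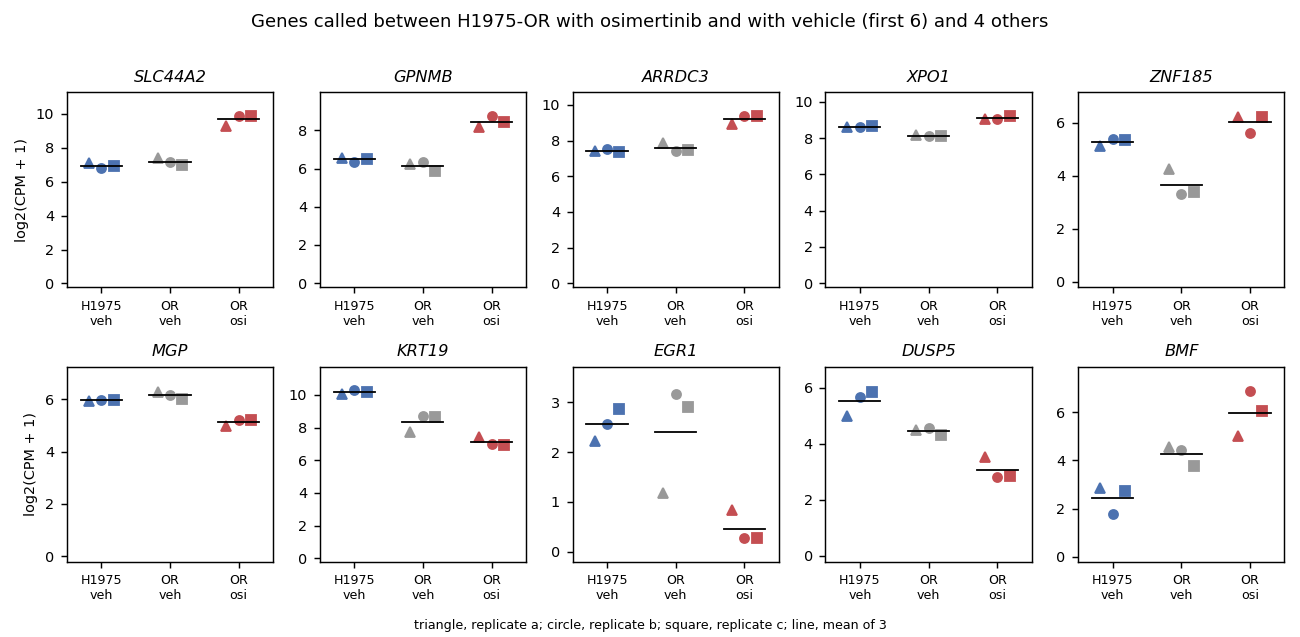
Levels of 10 genes as log2(CPM + 1) in 9 libraries (vertical axis, log2 scale; veh, vehicle; osi, osimertinib; triangle, circle, and square, replicates a, b, and c; line, mean). SLC44A2, GPNMB, ARRDC3, XPO1, and ZNF185 are higher and MGP lower with osimertinib than with vehicle in H1975-OR, and KRT19, DUSP5, EGR1, and BMF did not pass that test.

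For the main members of the lists, the values in the presence and absence of osimertinib are given side by side as log2 fold changes against H1975, followed by the direct test between both H1975-OR groups. CDH1 stood at -5.66 with and -5.12 without osimertinib (direct -0.55 ± 0.55, edgeR adjusted p = 0.879), and AMOT at 6.96 and 6.78 (direct 0.18 ± 0.19, edgeR adjusted p = 0.882). AREG stood at -6.60 and -3.95 (direct -2.65 ± 1.06, edgeR adjusted p = 0.563), and KRT19 at -3.05 and -1.74 (direct -1.31 ± 0.24, edgeR adjusted p = 0.179). Of the 23 tested genes of MAPK output, 0 passed the direct test in either direction, with a median of -0.51 against 0.01 over all genes. For 3 genes that EGFR and MAPK signaling induce, picked with their values known, the values were lower with the drug in every library. How many of all genes lay lower in this way was not counted. DUSP5 stood at -2.59 and -1.13 (direct -1.46 ± 0.30, edgeR adjusted p = 0.205), EGR1 at -3.55 and 0.07 (direct -3.61 ± 0.82, edgeR adjusted p = 0.25), and ERRFI1 at -1.01 and 0.42 (direct -1.43 ± 0.27, edgeR adjusted p = 0.179). BMF stood at 3.88 and 1.95 (direct 1.93 ± 0.48, edgeR adjusted p = 0.341). None of these direct differences passed the test, which does not show that the drug left the genes as they were.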

How the data were processed

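Total RNA of cultured cells was depleted of ribosomal RNA, and stranded libraries were made and sequenced by the authors. The submitters' processing notes name CASAVA 1.8.2, STAR 2.5.2b, kallisto 0.43.0, and the build GRCh38, and the study's methods state that transcripts were quantified with kallisto and summed to genes with tximport. What the authors deposited are estimated counts for 19612 gene symbols. Which transcript annotation and tximport settings were used is not given in the sources used here, so whether the counts were scaled is not known. Because counts that fit several transcripts or copies are divided by estimation, genes with near-identical copies are less certain.

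Estimated counts were rounded to whole numbers. Samples 1a to 1c, 2a to 2c, and 4a to 4c were analysed in 1 fit of 9 libraries (3 groups, 6 residual degrees of freedom) with edgeR 4.0.16 (R 4.3.3). The function filterByExpr (minimum count 10, minimum total 15) left 12281 genes. After TMM normalization, groups were compared by the two-sided quasi-likelihood test, with Benjamini-Hochberg adjustment over these genes at 0.05. All group labels came from the sample titles, and the 3 libraries of a group are separate passages of 1 line, so p-values measure the spread between passages. Totals of the 9 libraries were 4724371 to 5447793. For a gene without a count in a group, a bound used a floor of 3 counts per library. For 1 to 3 counts per library, ratios of pooled counts carry an exact (Clopper-Pearson) 95% interval, which like the floor covers counting error only. DESeq2 1.42.0 served as an alternative.

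Genes named were the 15 largest rises and falls (adjusted p under 0.05, at least 20 CPM in the higher group, no overlap of groups), up to 5 in each direction between the H1975-OR groups, key members and up to 4 called members per direction of 27 gene lists, and the 10 smallest p. Other genes were named from the lists after their values were seen. The comparison, the lists, and the markers were chosen with earlier results of these data known. Promoter windows of 250 bases are from RefSeq (GRCh38.p14) and gene positions from GENCODE 44. Scripts were tested on simulated counts. Replicate letters did not pair the H1975 and osimertinib libraries (correlations of deviations 0.0837, -0.124, and 0.0095), but those of the osimertinib and vehicle H1975-OR libraries were 0.315, 0.123, and 0.202, as inferred from the data and not from the labels. Some members of the lists are not reported here by name.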

Additional observations from a re-analysis of the deposited data

How the results depend on the processing

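For H1975-OR with osimertinib against H1975, the count of 2798 genes was 2776 with RLE size factors, 3418 with DESeq2, 2592 with no filter on low counts, 2579 with at least 10 counts in every library, 2998 with 14 libraries in 1 fit, 2532 with the 2 groups alone, 2781 with a replicate block, and 377 (193 higher, 184 lower) when tested against a 2-fold change with glmTreat. Leaving out 1 library gave 1540 to 3004, with 1540 without 1b, 1811 without 1c, 1546 without 4b, and 1624 without 4c. Without both 2a and 4a, an alternative chosen after seeing the data, it was 3501. No gene called in both changed direction. The fit of 14 libraries also held the H1975-OR libraries treated with 1,25(OH)2D3, the active metabolite of vitamin D, alone or with osimertinib. Sample 3a, treated with 1,25(OH)2D3 alone, was left out of it. The authors had excluded Sample 3a for its atypical expression.

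For H1975-OR with osimertinib against vehicle, the 6 genes became 129 with DESeq2, 14 with no filter on low counts, 13 with at least 10 counts in every library, 12 with 14 libraries in 1 fit, 2 with the 2 groups alone, with a replicate block, or with glmTreat, 71 without 2a and 4a, and 0 with a replicate block in the 2 groups alone, also added after seeing the data. Leaving out 1 library gave 2 to 39 genes, with 39 without 2a, 20 without 4a, 3 without 2c, and 2 without 2b or 4c. For H1975-OR with vehicle against H1975, 2196 became 320 with glmTreat and 1203 to 2138 without 1 library (1224 without 1b, 1265 without 1c, 1203 without 2b, 1345 without 2c).

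Of 193 named genes tested, 153 were called, and 107 of these kept their call and direction in every alternative. Over 2633 pairs of gene and alternative, 206 lost and 33 gained the call, and 0 turned a called direction. Among the genes that lost it were KRT17, SNAI1, PRRX2, LUM, DHCR7, ZYX, MERTK, and TGFB2. Among the named genes that lost their call with the replicate block were MKI67, NOG, PRRX2, HMGCS1, and ALDH3A2. Groups of 3 passages of 1 line limit the precision, and at these totals genes under about 1 CPM could not be compared.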

Other observations

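The spread within H1975 was not even across gene groups. The adhesion and polarity list stood at -0.70, 0.13, and 0.58 log2 units from the H1975 mean in replicates a, b, and c, whereas the DNA replication list stood at 0.02, -0.02, and -0.02. For CDH1 the H1975 values were 109, 240.3, and 384 CPM, for MACC1 12.4, 58.7, and 109 CPM, and for the fatty acid desaturase SCD 291, 942, and 1325 CPM, each lowest in replicate a. PLCG2, named after its values were seen, took 3.30% to 3.68% of the counts in H1975 and 4.68% to 6.51% in H1975-OR with osimertinib.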
